A study of Mus musculus with 4 samples.

Results

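The 10 genes described here encode proteins that hold epithelial cells together, or that set up the epithelial form of transcripts: the cadherins Cdh1 and Cdh2, the adhesion molecule Epcam, the claudins Cldn3, Cldn4, Cldn6 and Cldn7, the junction proteins Tjp1 and Ocln, and the splicing regulator Esrp1. They were chosen by name and make up 10 of 55353 gene symbols in the table of counts. Strand-specific sequencing of RNA depleted of ribosomal RNA was done on 4 libraries of mouse E14 embryonic stem cells (strain given as 12910la), a line derived from the early embryo. There were 2 libraries of cells targeted at Ssrp1 with Cas9 and a guide RNA, labelled as its knockout, and 2 libraries of cells labelled wild type, which serve as controls. Both groups grew on gelatin in medium with serum and leukemia inhibitory factor. The labels speak of knockout cell lines without giving the number of clones, and nothing shows that replicate libraries stem from separate cultures, so a p-value here weighs a difference against a spread between libraries that may be technical. The treatment text also describes transfection of wild-type cells with a puromycin-resistance vector for a Usp7 shRNA, without linking it to any of these libraries.

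Embryonic stem cells grow as compact colonies whose cells adhere through E-cadherin, the product of Cdh1. Cadherins bind the same molecule on the next cell and are tied to actin through catenins. Claudins and occludin form the strands of tight junctions, which seal the space between epithelial cells, and Tjp1 (ZO-1) anchors these strands to the cytoskeleton. When epithelial cells turn mesenchymal, Cdh1 usually gives way to Cdh2 (N-cadherin), and the Esrp splicing factors, which maintain the epithelial isoforms of transcripts such as those of Fgfr2 and Ctnnd1, are lost.

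Total counts were 22855451 and 23030224 in the libraries labelled knockout, against 22611434 and 25344190 in the controls. The transcript of the targeted gene was not reduced. Ssrp1, a subunit of the histone chaperone FACT, had a normalised level of 305.5 and 327.3 CPM (counts scaled so that the libraries can be compared) in the libraries labelled knockout, against 282.2 and 305.7 CPM in the controls. The difference amounted to a log2 fold change of 0.11 ± 0.06 (SE, n = 2 libraries a group; edgeR's quasi-likelihood test, adjusted p 0.226). It was called higher with scaling by library size alone (adjusted p 0.0308) and without labelled knockout 1 (adjusted p 0.0108). Counts per gene do not show a small lesion, so this level does not check the labels, and the samples are named by their label throughout. Gm26917 and Gm42418, which can collect reads left from ribosomal RNA, took 6.30% and 4.64% of counts in the libraries labelled knockout, against 9.72% and 10.3% in the controls. With both genes removed before scaling, the calls among the 10 genes were the same.

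Of the 10 genes, Esrp1 and Cldn6 rose, Cldn4 fell, and the other 7 were not called at an adjusted p under 0.05. That is 30.0% of the genes, where the same test called 33.6% of all 17482 genes tested (16.5% higher and 17.2% lower), so the number of calls does not set these genes apart. Of all calls 49.0% were higher, and 63.7% with scaling by library size alone. In these bulk samples a change in the number of cells that carry a transcript and a change in RNA per cell cannot be told apart. The median log2 fold change of the 10 genes was 0.05, and that of all tested genes was 0.00. All libraries labelled knockout lay to the same side of all controls in normalised CPM for 8 of the 10 genes, and for 66.6% of all tested genes. All 10 genes passed the filter on low counts. The 2 most abundant of them, Cdh1 and Tjp1, were at nearly the same level in both groups, with 95% intervals that allow changes of at most about 0.22 on the log2 scale.

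**Figure D1:**
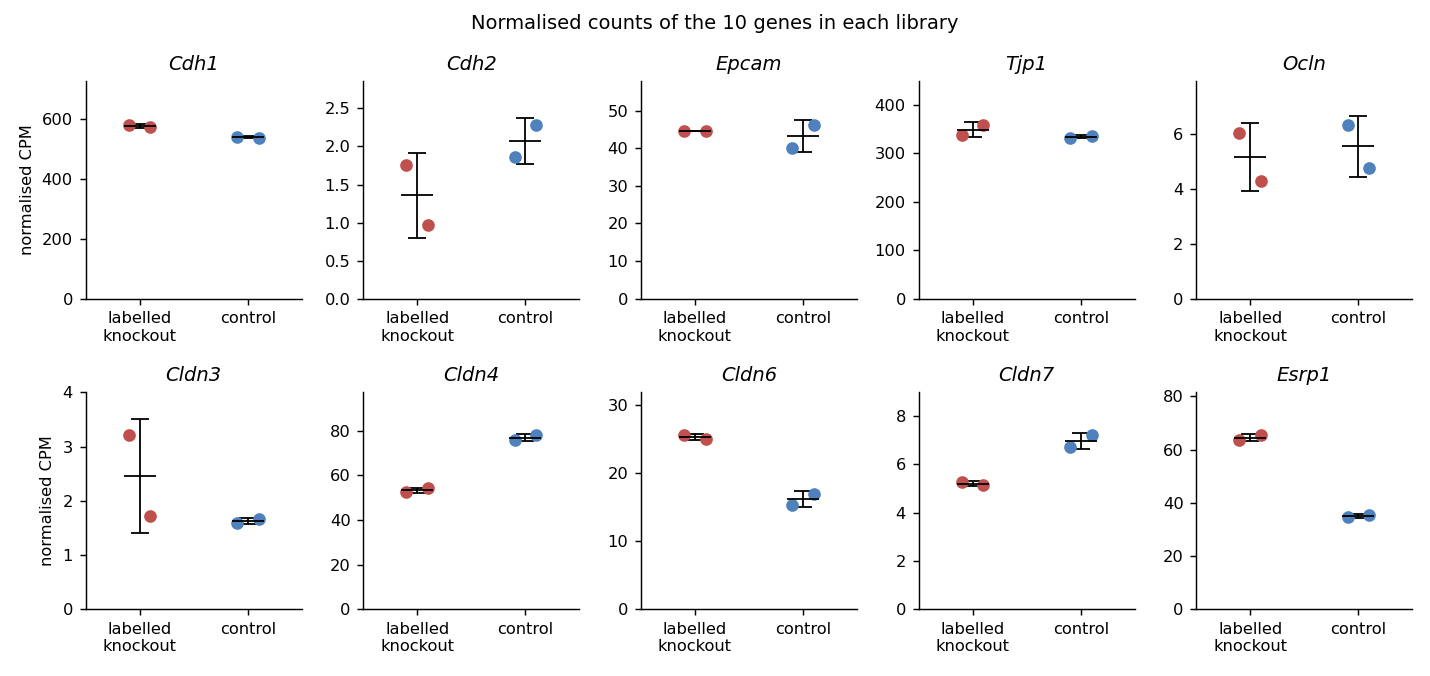
Normalised CPM (y axis, from 0) of each of the 10 genes in the 2 libraries labelled knockout (red) and the 2 controls (blue); dots are libraries and the black marks are the mean and SD. Esrp1 and Cldn6 were higher in both libraries labelled knockout, Cldn4 was lower in both, and Epcam and Ocln overlapped between the groups.

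Of the paired cadherins, Cdh1 was far above Cdh2 in every library, and neither was called. Cdh1 (chromosome 8, 106603351 to 106670246, plus strand, mm10), whose product is the main adhesion protein of these cells, had 581.0 and 572.0 CPM in the libraries labelled knockout, against 540.4 and 536.4 CPM in the controls. Both libraries labelled knockout were slightly above both controls. The log2 fold change was 0.10 ± 0.06 (95% interval -0.02 to 0.22) and was not called (edgeR adjusted p 0.205). With scaling by library size alone, under which the median of all genes moved to 0.09, Cdh1 was called higher (log2 fold change 0.18, adjusted p 0.0212).

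Cdh2 (chromosome 18, 16588877 to 16809246, minus strand), the cadherin of neural and mesenchymal cells, was close to the lower limit of what was tested. It had 41 and 23 counts in the libraries labelled knockout, against 41 and 56 in the controls, which is 1.75 and 0.967 CPM in the libraries labelled knockout, against 1.86 and 2.29 CPM in the controls. The lowest count alone carries a counting error of 20.9%. The log2 fold change was -0.61 ± 0.37 (95% interval -1.37 to 0.15; edgeR adjusted p 0.214), and it ranged from -1.10 to -0.25 when single libraries were left out. The depth therefore does not settle whether Cdh2 differed. Per kilobase of exon, Cdh1 exceeded Cdh2 by 584.1-fold and 1044-fold in the libraries labelled knockout, against 512.6-fold and 413.6-fold in the controls. The fold depends on the length used: with the longest transcript of each gene it was 362.1 and 646.8 in the libraries labelled knockout, against 317.8 and 256.4 in the controls. This ratio does not depend on the scaling of the libraries. The log2 ratio of Cdh2 to Cdh1 was -9.61 ± 0.59 in the libraries labelled knockout and -8.85 ± 0.22 in the controls (SD, n = 2 each), a difference of -0.76 with an exact permutation p of 0.33 (2-sided), which is the smallest p that 2 against 2 allows.

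Epcam (chromosome 17, 87635979 to 87651129, plus strand), a surface glycoprotein of epithelia and of embryonic stem cells that binds claudin-7, had 44.6 and 44.5 CPM in the libraries labelled knockout, against 40.2 and 46.3 CPM in the controls. The controls lay on either side of the libraries labelled knockout. The log2 fold change of 0.04 ± 0.09 (edgeR adjusted p 0.757) had a 95% interval of -0.14 to 0.23, and the sign turned to -0.06 without control 1.

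Tjp1 (chromosome 7, 65296165 to 65527781, minus strand), the ZO-1 scaffold, had 338.6 and 359.5 CPM in the libraries labelled knockout, against 332.6 and 336.4 CPM in the controls. Every library was within a narrow band, and the log2 fold change was 0.06 ± 0.06 (95% interval -0.07 to 0.19; edgeR adjusted p 0.476). Ocln (chromosome 13, 100496507 to 100552718, minus strand), which encodes the strand protein occludin, had 6.03 and 4.29 CPM in the libraries labelled knockout, against 6.35 and 4.78 CPM in the controls. The spread inside each group was larger than the difference between the groups. The log2 fold change was -0.11 ± 0.21 (edgeR adjusted p 0.746), and its sign turned without labelled knockout 2 (0.12) or control 1 (0.10).

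**Figure D2:**
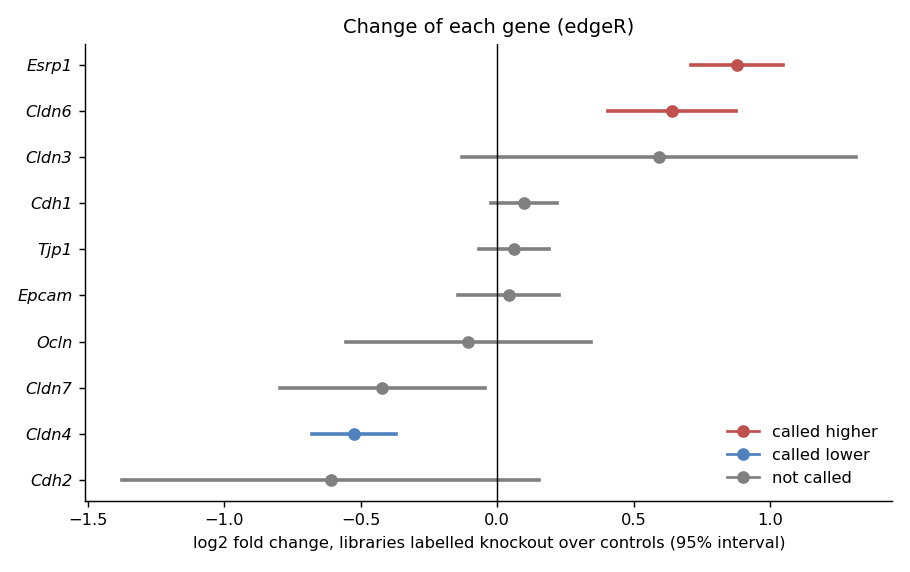
Log2 fold change of each gene (x axis, libraries labelled knockout over controls) with its 95% interval from edgeR; red marks genes called higher, blue the gene called lower, grey genes not called. The intervals of Cdh2 and Cldn3 are wide, at 23 to 75 counts per library, and those of Cdh1, Tjp1 and Epcam are narrow and span 0.

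Of the 4 claudins, Cldn6 rose, Cldn4 fell, and Cldn3 and Cldn7 were not called. The 250 bases before the annotated starts of the called pair are shown because these transcripts changed in opposite directions. They are RefSeq sequences of GRCm38.p6, read 5′ to 3′ on the strand of the gene, and capitals mark each match to CAGGTG or its reverse complement CACCTG, the E-box bound by Snail and Zeb repressors.
Cldn6, chr17:23679115-23679364, plus strand: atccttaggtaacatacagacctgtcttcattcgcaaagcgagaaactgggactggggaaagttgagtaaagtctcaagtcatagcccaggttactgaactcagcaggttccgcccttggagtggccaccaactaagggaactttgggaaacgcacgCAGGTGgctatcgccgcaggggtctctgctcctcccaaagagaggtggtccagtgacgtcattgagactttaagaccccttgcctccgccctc
Cldn4, chr5:134946935-134947184, minus strand: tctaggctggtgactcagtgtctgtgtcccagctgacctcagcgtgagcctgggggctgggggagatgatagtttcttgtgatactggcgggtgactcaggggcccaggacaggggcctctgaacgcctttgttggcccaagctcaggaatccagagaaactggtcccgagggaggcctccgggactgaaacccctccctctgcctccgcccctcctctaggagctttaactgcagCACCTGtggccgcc
GENCODE places the start of Cldn6 inside this window, at 23679249, and positions here are counted from the RefSeq start. The window of Cldn6 held 1 match, which began 93 bases before the RefSeq start but lies after the GENCODE start. That of Cldn4 held 1 match, 14 bases before the start. Such a match was present in 17.2% of 32851 RefSeq promoter windows of this length. A window was given for 7 of the 10 genes, and none for Cdh1, Cdh2 and Esrp1. Epcam held 2 matches, and Cldn3 and Tjp1 held 0. Cldn7 and Ocln, each with 2 annotated starts, held 2 before the second start listed and 0 before the first. These matches of Cldn7 and Ocln also lie after the GENCODE start of the gene. The window of Tjp1 (65371245 to 65371494) lies inside the gene, which in GENCODE starts at 65527781. The bases before that GENCODE start were not searched. No window of these 7 genes held AACCNGTT, the Grhl motif (reverse complement AACNGGTT, in 1.79% of all windows), or ATGCAAAT, the octamer bound by Pou5f1 (reverse complement ATTTGCAT, in 1.60%). Only the E-box occurred in them, so the 3 motifs could not overlap there. The matches are descriptions of the sequence, and binding was not measured.

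Cldn6 (chromosome 17, 23679249 to 23682446, plus strand), a claudin of embryonic epithelia and pluripotent cells, had 25.5 and 24.9 CPM in the libraries labelled knockout, against 15.3 and 16.9 CPM in the controls. Both libraries labelled knockout were above both controls. The rise was 1.56-fold (log2 fold change 0.64 ± 0.11, edgeR adjusted p 0.000171), and it was called under all 11 alternatives to the scaling, filter, tool, pairing and set of libraries (log2 fold changes from 0.56 to 0.72). Its neighbour Cldn9, which lies just downstream of it on the other strand, was not called (1.28 and 1.56 CPM in the libraries labelled knockout, against 1.72 and 1.88 CPM in the controls; edgeR adjusted p 0.489).

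Cldn4 (chromosome 5, 134945119 to 134946934, minus strand), a barrier claudin of many epithelia and a receptor for Clostridium perfringens enterotoxin, had 52.6 and 54.2 CPM in the libraries labelled knockout, against 75.6 and 77.9 CPM in the controls. The groups were well apart, with an SD of 1.13 CPM in the libraries labelled knockout and 1.62 CPM in the controls. It fell to 0.696 of the control level (log2 fold change -0.52 ± 0.07, edgeR adjusted p 1.66e-05), and under the 11 alternatives the log2 fold change lay between -0.55 and -0.44 and was called each time.

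Cldn7 (chromosome 11, 69964779 to 69967885, plus strand), the claudin that partners Epcam, had 5.26 and 5.13 CPM in the libraries labelled knockout, against 6.71 and 7.19 CPM in the controls. Both libraries labelled knockout were below both controls, yet the log2 fold change of -0.42 ± 0.18 did not pass after adjustment (edgeR adjusted p 0.0797, and 0.0728 to 0.327 under the 11 alternatives). Cldn3 (chromosome 5, 134986214 to 134987472, plus strand), which like Cldn4 binds the enterotoxin and lies near it on the chromosome, had 3.21 and 1.72 CPM in the libraries labelled knockout, against 1.59 and 1.67 CPM in the controls. Only labelled knockout 1, with 75 counts, stood apart from the 41, 35 and 41 counts of the other libraries. The log2 fold change was 0.59 ± 0.35 (edgeR adjusted p 0.200). It was 0.08 without labelled knockout 1, and 0.97 with a call (adjusted p 0.0337) without labelled knockout 2, so that 1 library decides this value. Its single exon shares 40 bases with Wbscr25, on the opposite strand, which had at most 6 counts in any library.

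Expressed per kilobase of exon, the 4 claudins summed to 49.0 and 48.3 CPM per kb in the libraries labelled knockout, against 55.2 and 57.8 CPM per kb in the controls. Cldn4 made up 59.1% and 61.8% of this sum in the libraries labelled knockout, against 75.4% and 74.3% in the controls. The share of Cldn6 was 30.2% and 29.9% in the libraries labelled knockout, against 16.1% and 17.1% in the controls. Cldn6 was thus at 0.512 and 0.485 of the level of Cldn4 in the libraries labelled knockout, against 0.214 and 0.230 in the controls. The log2 ratio of Cldn6 to Cldn4 differed by 1.17 between the groups. Its exact permutation p was 0.33 (2-sided), the smallest that 2 against 2 allows. The shares and this ratio follow from the changes of the single genes, and the shares were not tested again.

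**Figure D3:**
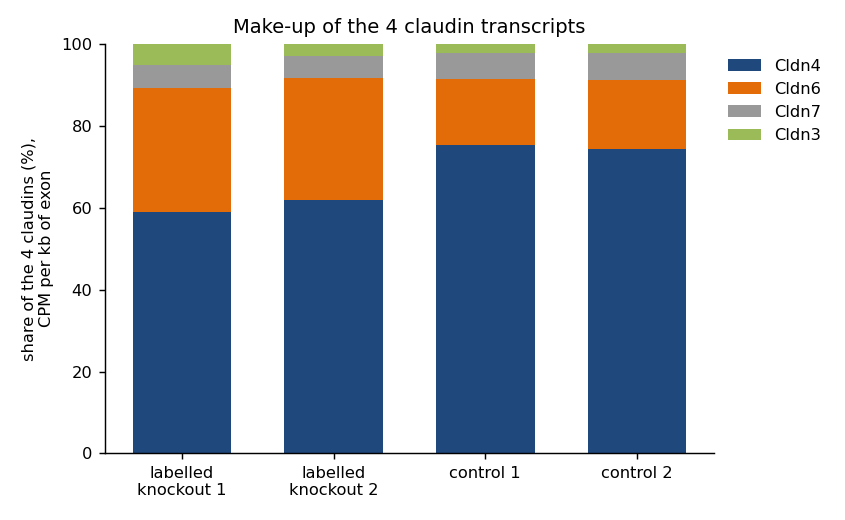
Share (%) of each claudin in the summed CPM per kb of exon of the 4 claudins, by library (stacked bars, from 0 to the whole). Cldn6 takes 30.2% and 29.9% in the libraries labelled knockout, against 16.1% and 17.1% in the controls, and Cldn4 takes a smaller share there.

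Esrp1 (chromosome 4, 11331933 to 11386783, minus strand), which directs epithelial splicing, had the smallest adjusted p of the 10 genes. It had 63.5 and 65.4 CPM in the libraries labelled knockout, against 34.6 and 35.5 CPM in the controls. Within a group the libraries differed by less than 2 CPM, and the groups were far apart. The rise was 1.84-fold (log2 fold change 0.88 ± 0.08, 95% interval 0.71 to 1.05, edgeR adjusted p 6.74e-08), and the log2 fold change was 0.85 to 0.96 under the 11 alternatives. Per kilobase of exon, Esrp1 reached 0.0793 and 0.0829 of the level of Cdh1 in the libraries labelled knockout, against 0.0464 and 0.0480 in the controls. Splicing itself was not measured in these counts per gene. The annotation places a long noncoding RNA, Gm26663, on the opposite strand with 127 bases of exon in common with Esrp1. That symbol was not among those counted, so no level can be given for it.

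The order of the genes by level per kilobase was led by Cdh1 in every library, at 126.0 ± 1.39 CPM per kb in the libraries labelled knockout and 117.7 ± 0.620 CPM per kb in the controls (SD, n = 2 each). This placed Cdh1 above 98.6% of the 17119 tested genes with a matched gene model in either group. Tjp1 followed at 44.7 ± 1.89 CPM per kb in the libraries labelled knockout and 42.8 ± 0.345 CPM per kb in the controls. In the controls Tjp1 and Cldn4 (42.3 ± 0.894 CPM per kb) overlapped, whereas in the libraries labelled knockout Cldn4 stood at 29.4 ± 0.620 CPM per kb, below both values of Tjp1. Epcam came next, at 20.3 ± 0.0372 CPM per kb in the libraries labelled knockout and 19.7 ± 1.96 CPM per kb in the controls. Cldn6 was at 14.6 ± 0.254 CPM per kb in the libraries labelled knockout and 9.38 ± 0.667 CPM per kb in the controls, and Esrp1 at 10.2 ± 0.209 CPM per kb in the libraries labelled knockout and 5.56 ± 0.100 CPM per kb in the controls. From Epcam to Cldn7 no neighbours in this order overlapped. Cldn7 was at 2.67 ± 0.0490 CPM per kb in the libraries labelled knockout and 3.57 ± 0.173 CPM per kb in the controls. Cldn3 was at 1.96 ± 0.834 CPM per kb in the libraries labelled knockout and 1.30 ± 0.0491 CPM per kb in the controls. Ocln was at 1.22 ± 0.292 CPM per kb in the libraries labelled knockout and 1.32 ± 0.263 CPM per kb in the controls. Cldn3 and Ocln overlapped within each group. Cdh2 was last, at 0.169 ± 0.0690 CPM per kb in the libraries labelled knockout and 0.257 ± 0.0375 CPM per kb in the controls, above 4.2% of tested genes in the libraries labelled knockout and 9.2% in the controls.

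**Figure D4:**
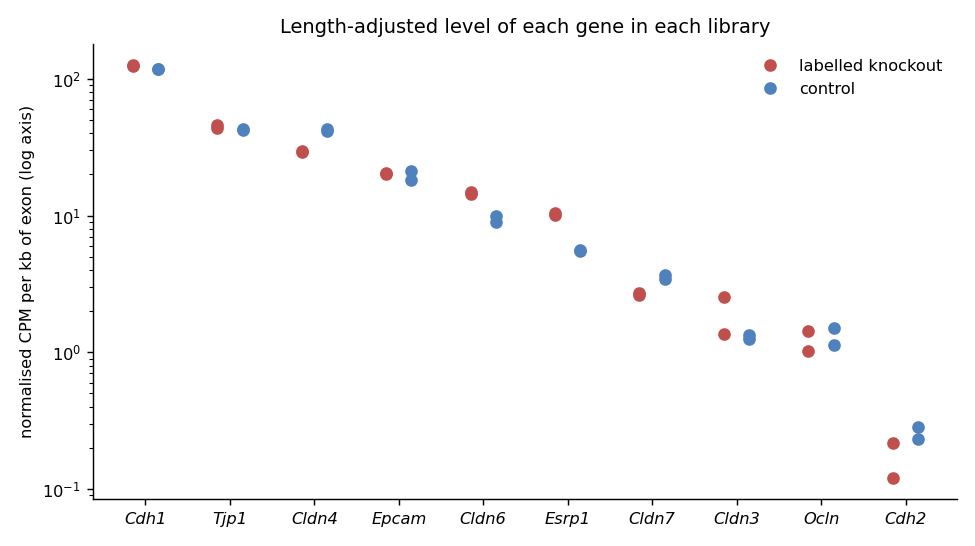
Normalised CPM per kilobase of exon (log axis) of each gene in each library labelled knockout (red) and each control (blue), ordered by the mean of the libraries labelled knockout. Cdh1 is highest in every library and Cdh2 lowest; Cldn4 lies beside Tjp1 in the controls and below it in the libraries labelled knockout.

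Other genes of adhesion were taken from 8 lists, in which the share called ranged from 22.2% of tested connexins to 66.7% of tested desmosome genes, where it was 33.6% of all tested genes. Of 16 epithelial regulators and membrane proteins 14 were tested. Of these, 5 rose, 1 fell and 8 were not called (median log2 fold change 0.24, against 0.00 for all tested genes). Rbm47, an RNA-binding protein that also acts in splicing, rose to 65.1 and 63.8 CPM in the libraries labelled knockout, against 23.6 and 22.5 CPM in the controls (log2 fold change 1.49 ± 0.09, edgeR adjusted p 8.43e-11). Grhl2, a transcription factor that activates junction genes in mouse epithelia, rose to 29.9 and 31.8 CPM in the libraries labelled knockout, against 13.9 and 15.6 CPM in the controls (1.06 ± 0.11, adjusted p 4.03e-07). Esrp2, the paralogue of Esrp1, rose to 10.2 and 13.4 CPM in the libraries labelled knockout, against 5.03 and 6.33 CPM in the controls (1.05 ± 0.18, adjusted p 0.000108). For these 3 genes the groups did not overlap. Grhl3 and Ovol2 were the other calls upward, and St14, a membrane protease, was the call downward, with 2 downward calls without labelled knockout 1. These 3 were named because they complete the count.

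The partners of the cadherins were mixed. Of 14 adherens junction genes 13 were tested, and 2 rose and 4 fell (median 0.03). Afdn, the actin linker of nectins, fell to 315.0 and 303.2 CPM in the libraries labelled knockout, against 396.8 and 408.2 CPM in the controls (log2 fold change -0.38 ± 0.06, edgeR adjusted p 6.44e-05). Jup, plakoglobin, and Nectin1 had log2 fold changes of -0.30 and -0.32, and both missed the threshold without control 2 (edgeR adjusted p 0.0658 and 0.0649), where 1 gene of the list was called lower. Without labelled knockout 1, control 1 or control 2, 1 gene was called higher. Of 20 other cadherins 6 were tested, with 2 higher and 1 lower (median 0.29). Cdh3, P-cadherin, rose to 91.2 and 102.0 CPM in the libraries labelled knockout, against 58.9 and 64.7 CPM in the controls (log2 fold change 0.64 ± 0.08, edgeR adjusted p 2.4e-06). Per kilobase of exon, Cdh1 exceeded Cdh3 by 6.11-fold and 5.37-fold in the libraries labelled knockout, against 8.79-fold and 7.95-fold in the controls. Cdh4 averaged 1.84 ± 0.307 CPM in the libraries labelled knockout and 0.678 ± 0.254 CPM in the controls, and its call was lost without labelled knockout 2 or control 1, which each left 1 higher cadherin. Cdh22 fell to 0.468 ± 0.186 CPM in the libraries labelled knockout, against 1.73 ± 0.188 CPM in the controls (SD, n = 2).

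Among 23 tight junction scaffold and polarity genes, all tested, 8 rose and 6 fell (median 0.23), and 3 fell without control 2. Cgnl1, the cingulin-like protein of both junction types, rose to 74.7 and 84.2 CPM in the libraries labelled knockout, against 49.7 and 48.4 CPM in the controls (log2 fold change 0.70 ± 0.08, edgeR adjusted p 1.21e-06). Amotl1, an angiomotin of the tight junction, had a log2 fold change of 0.64 ± 0.09. Mpdz, a multi-PDZ scaffold that binds claudins, fell to 9.37 and 8.49 CPM in the libraries labelled knockout, against 16.5 and 18.8 CPM in the controls (-0.99 ± 0.14, edgeR adjusted p 1.24e-05). Of 22 other claudins, 6 had no count in any library and 4 were tested, of which 1 fell and 3 were not called. That gene, Cldn19, was at 0.530 ± 0.0367 CPM in the libraries labelled knockout and 1.37 ± 0.0809 CPM in the controls (SD, n = 2). Its call was lost without any 1 of the 4 libraries (edgeR adjusted p 0.0708 to 0.159) and under DESeq2 (adjusted p 0.168).

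Desmosomes, the junctions that tie keratin filaments together, showed 4 genes higher and 2 lower of 9 tested (12 in the list, median 0.39), with 2 higher without control 1 and 2 higher under DESeq2. Dsp, desmoplakin, fell to 21.5 and 18.2 CPM in the libraries labelled knockout, against 37.0 and 37.2 CPM in the controls (log2 fold change -0.90 ± 0.10, edgeR adjusted p 1.55e-06). Dsg2, a desmosomal cadherin, had a log2 fold change of -0.39 ± 0.07, and the plakophilin Pkp2 rose to 55.1 and 60.4 CPM in the libraries labelled knockout, against 38.1 and 39.3 CPM in the controls. Of 20 connexins of gap junctions 9 were tested, of which 2 rose and 7 were not called (median 0.04). Among those that rose was Gja1, with a log2 fold change of 0.44 ± 0.06.

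Regulators and markers of the mesenchymal transition did not move one way. Of 16 genes 11 were tested, with 2 higher and 3 lower (median 0.01), and 1 higher without control 1. Vim, the intermediate filament of mesenchymal cells, fell to 71.2 and 68.0 CPM in the libraries labelled knockout, against 110.8 and 111.5 CPM in the controls (log2 fold change -0.68 ± 0.07, edgeR adjusted p 2.71e-07). The matrix gene Fn1 had a log2 fold change of -0.25 ± 0.06, and Sparc, another matrix gene, one of 0.36 ± 0.07. The Snai, Twist and Zeb genes, regulators of the mesenchymal transition known to act on Cdh1 among other genes, were named after their values were seen. Zeb1 rose to 44.4 and 43.9 CPM in the libraries labelled knockout, against 34.4 and 35.7 CPM in the controls (log2 fold change 0.33, edgeR adjusted p 0.00522). The other tested ones were not called and went both ways, with log2 fold changes of 0.71 for Snai1, 1.22 for Snai2, 0.79 for Snai3, -0.38 for Zeb2 and -1.08 for Twist1, all of them under 3 CPM in every library.

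**Figure D5:**
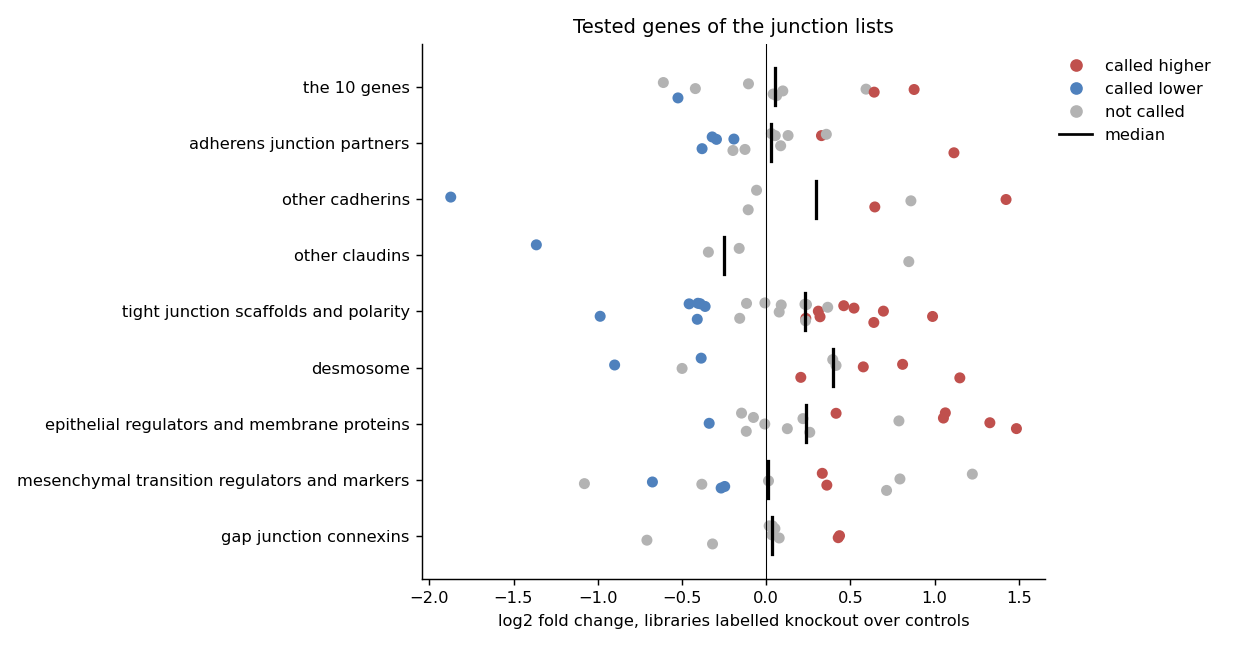
Log2 fold change (x axis, libraries labelled knockout over controls) of the tested genes of each list (rows); dots are genes, coloured by their call, and black bars are medians. The 10 genes have a median of 0.05, and calls in both directions occur in each list except the other claudins and the connexins.

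Markers of other cell types are given beside the 33.6% of all tested genes that were called (16.5% higher and 17.2% lower). Of 10 primitive endoderm markers 9 were tested, of which 6 rose and 3 were not called. The list summed to 143.5 and 138.2 CPM in the libraries labelled knockout, against 116.4 and 106.7 CPM in the controls. Most of each sum was Lama1, which was not called. It averaged 92.5 CPM in the libraries labelled knockout and 95.9 CPM in the controls. The 6 that rose were at most at 16.0 CPM in any library, with rises from 1.72-fold (Pdgfra) to 5.90-fold (Gata6). The trophoblast list had 2 higher and 4 not called of 6 tested. This share is near that of all genes only with directions pooled, since both calls were upward. The list had a sum of 132.8 and 142.8 CPM in the libraries labelled knockout, against 86.2 and 85.9 CPM in the controls. Tfap2c alone averaged 92.7 CPM in the libraries labelled knockout and 52.7 CPM in the controls, most of the difference of that sum. Krt18, also called higher, averaged 21.1 CPM in the libraries labelled knockout and 14.8 CPM in the controls. Eomes had 8.51 and 8.07 CPM in the libraries labelled knockout, against 6.21 and 6.21 CPM in the controls, and was not called. Gata3, which was not tested, was at most at 0.462 CPM in any library. Cdx2 and Elf5 were at most at 0.128 CPM in any library. Of the 6 surface epithelium markers, Krt5, Krt14, Krt15 and Trp63 were at or under 0.126 CPM in every library, and Sfn was the 1 gene called, upward; the list summed to 23.7 and 30.1 CPM in the libraries labelled knockout, against 20.1 and 25.4 CPM in the controls. Neuroectoderm markers, the list nearest to Cdh2, had 1 higher and 3 lower of 6 tested, and summed to 88.7 and 92.8 CPM in the libraries labelled knockout, against 159.4 and 166.3 CPM in the controls. Nearly all of this difference lay in Ncam1, at 16.0 CPM in the libraries labelled knockout and 84.5 CPM in the controls on average. Map2 (10.0 CPM in the libraries labelled knockout and 19.6 CPM in the controls) was also called lower. So was Sox1 (1.02 CPM in the libraries labelled knockout and 4.02 CPM in the controls). Nes rose (24.1 CPM in the libraries labelled knockout and 12.0 CPM in the controls). Tubb3 was not called (32.9 CPM in the libraries labelled knockout and 34.0 CPM in the controls). Nor was Pax6 (6.68 CPM in the libraries labelled knockout and 8.77 CPM in the controls). The fibroblast list had 1 lower and 2 not called of 3 tested, also near the share of all genes with directions pooled. It summed to 31.5 and 34.3 CPM in the libraries labelled knockout, against 38.0 and 39.2 CPM in the controls. Thy1 and Pdgfrb made up most of this sum in every library. Of the 8 genes, 5 were under 1 CPM in every library, and 3 of these had no count. Pluripotency markers stayed abundant, at a sum of 3108 and 3057 CPM in the libraries labelled knockout, against 3816 and 3901 CPM in the controls, with 2 higher and 5 lower of 8. The part of these markers in the changes of Esrp1, Cldn6 and Cldn4 was not tested.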

How the data were processed

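Counts per gene symbol were deposited by the authors as whole numbers with no normalization. The tools named in the submitters' processing notes are cutadapt, HISAT2 and featureCounts, and the build is mm10. Their versions, the annotation and the strand setting of the counting were not given in the sources used here. Columns carrying the letters OK were matched to the titles with KO by gene and replicate number. Genes were filtered with filterByExpr (minimum count 10, minimum total 15), which left 17482, and libraries were scaled by TMM. Groups were compared with the quasi-likelihood F test of edgeR 4.0.16 in R 4.3.3 (2-sided, without covariates, prior count 0.125). It had 2 residual degrees of freedom, to which edgeR added prior degrees of freedom estimated across all tested genes. The p-values were adjusted by Benjamini-Hochberg over all tested genes. The standard error is the log2 fold change divided by the square root of F. DESeq2 1.42.0 was an alternative.

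The 10 genes and the lists were chosen with earlier results of these data known. Named from each list are the 3 called genes with the smallest adjusted p, except 1 gene that is not reported here. Positions, exon lengths (union of exons) and overlaps come from GENCODE M21, on the same build. No window of 50 bases in the longest transcript of any of the 10 genes occurs in a transcript of another gene. In a test on simulated data for this comparison, edgeR recovered 28 of 50 genes changed 1.5-fold and 38 of 50 changed 2-fold, with 10 calls among 17282 unchanged genes. That simulation left 17282 of 17482 genes unchanged, whereas 33.6% of tested genes were called in the data. The adjustment of p-values depends on this share, so these recovery rates need not hold here. Same-group libraries differed beyond sampling noise (chi-square per degree of freedom 11.5 for the libraries labelled knockout and 3.37 for the controls). In a single library, 3 counts correspond to 0.123 to 0.136 CPM. The intervals on log2 fold changes rest on the standard error of the edgeR test, so they are not limited to counting error. They use the residual and prior degrees of freedom together, so their width depends on spread borrowed from other genes. The percentage given for the lowest count of Cdh2 covers counting error only.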

Additional observations from a re-analysis of the deposited data

How the results depend on the processing

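The calls of Esrp1, Cldn6 and Cldn4 were the same under all 11 alternatives. Of 108 values of the 10 genes under these alternatives, 2 crossed the threshold: Cdh1 at 0.18 (log2) when libraries were scaled by their totals alone, and Cldn3 without labelled knockout 2. Leaving out single libraries gave 1915 to 2995 genes called higher and 2105 to 3244 lower, against 2877 and 3000 with all libraries; 1915 was without control 1. DESeq2 called 1977 genes lower. Scaling by library size alone moved the share of calls that were higher from 49.0% to 63.7%. Leaving out single libraries gave 2 to 3 of the 10 genes higher. The log2 fold change of Cldn3 then ranged from 0.079 to 0.971. For the lists, the same gave 1 to 3 higher and 1 to 5 lower adherens junction genes, 1 to 2 higher other cadherins, 0 to 1 lower other claudins, 3 to 7 lower tight junction genes, 2 to 5 higher desmosome genes, 1 to 2 lower epithelial regulators and 1 to 2 higher mesenchymal genes. DESeq2 called 1 higher adherens junction gene, 1 higher other cadherin, 0 lower other claudins and 2 higher desmosome genes. With at least 5 CPM required in 2 libraries, fewer genes were tested, and 1 adherens junction gene and 1 other cadherin were higher, with 0 cadherins and 0 claudins lower. For the rest the cause was not tested. With the replicate number as a block, 3072 genes were higher and 3216 lower, and 2 and 1 of the 10 genes. The numbers pair nothing in the labels, and same-numbered libraries did not deviate together (correlation 0.01). Gene length cancels in the difference of the Cdh2 to Cdh1 ratio between groups, so lengths of the longest transcript give the same -0.76 by construction. Depth limits Cdh2 and Cldn3 most, with 23 to 75 counts per library.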
